A study of Drosophila melanogaster with 10 samples.

Results

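Sperm and seminal fluid genes were followed in heads of Drosophila melanogaster. The genes were taken by name from the array's annotation, namely every symbol that starts with Mst, S-Lap, Sfp or Acp followed by a digit, other than the Acp65 symbols, together with betaTub85D, dj, janB, ocn, ProtA and ProtB. This gave 47 genes, each with 1 probe set, out of 11982 genes that the annotation names singly and 18769 probe sets other than controls. For counting, the 27 genes named Mst, S-Lap, betaTub85D, dj, janB, ocn, ProtA and ProtB are called testis genes, and the 20 genes named Acp and Sfp seminal fluid genes. By this naming Mst57Da and Mst57Dc count as testis genes, though both are accessory gland genes. Another 7 probe sets carry a fitting symbol beside that of a different gene and were left out, since their signal cannot be assigned to 1 gene.

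The fruit fly testis makes very long sperm, and most genes for building them are transcribed in male germ cells and nowhere else to a comparable degree. Late in this process histones are replaced by protamine-like proteins and a long flagellum is assembled around an axoneme of testis-specific tubulin. The accessory gland, ejaculatory duct and ejaculatory bulb secrete the proteins that travel with the sperm and alter egg laying, sperm storage and receptivity of the mated female. These organs lie in the abdomen, whereas the RNA here is labelled as coming from heads.

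Total RNA from heads of the yw strain (a strain with yellow body and white eyes) was measured on 10 arrays, and every title calls its sample a control. The labels name no other genotype or treatment. The times of day, as zeitgeber time (ZT, hours of the light cycle), were ZT3, ZT7, ZT11, ZT15, ZT19 and ZT23. ZT15 and ZT3 have 3 arrays each and the other 4 times have 1 array each. The sources used here do not give sex, age, light schedule or the number of heads per sample. Nor do they say whether replicates came from separate cultures, so the p-values speak of the spread among these arrays alone, part of which may be technical.

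Levels are natural logs of the deposited intensities, which are likely GCRMA log2 values (GCRMA is a method that corrects background, normalizes arrays and combines probes) raised to the base e. Read that way, 1 unit is a doubling. If the deposited numbers are plain intensities, each difference is 1.44 times larger on the log2 scale. Levels of different probe sets are not on a common scale, so differences are compared within a gene.

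Clustering was done on 12840 probe sets, which hold none of the 47 genes and none of the genes of the marker lists used below. The gene SP, described below, was among them, and probe sets with a fitting symbol beside another were not left out by name. This clustering split the arrays into a larger group, called the set of 6, and a smaller one, called the set of 4. The set of 6 holds ZT3 replicate 3, ZT7, ZT11, ZT15 replicate 1, ZT19 and ZT23. The set of 4 holds ZT15 replicates 2 and 3 and ZT3 replicates 1 and 2. Correlations between arrays were 0.969 to 0.992 within sets and 0.74 to 0.842 between them. What set them apart in the laboratory is not stated in any label. As they were drawn from expression values, differences between them are described without a test. Leaving genes out by name does not make the sets independent of genes that behave alike. Of 381 probe sets higher in the set of 6 by over 5 without overlap, 36 were of the 47 genes. Another 21 were in the 2 further male reproductive lists. Those in no list stayed in the clustering. Below, a gene's values in the set of 6 are its lowest, median and highest, and its values in the set of 4 are those of ZT15 replicates 2 and 3 followed by ZT3 replicates 1 and 2.

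Nearly all sperm and seminal fluid genes were high on every array of the set of 6 and low on every array of the set of 4. Of the 47 genes, 43 had their lowest value in the set of 6 above their highest in the set of 4, as did 15.5% of all 18769 probe sets. Only Mst36Fb, Mst85C and Acp95EF had the opposite separation, which held for 41.3% of all probe sets, and the values of Sfp65A overlapped. Differences given are the mean of the set of 6 minus the mean of the set of 4. Their median over the 27 testis genes was 6.45 and over the 20 seminal fluid genes 7.66, against -0.24 over all probe sets. Each of the 43 was higher by over 2, beside 11% of the 12991 probe sets that passed a limit on low values (a mean of at least 4). By over 5 it was 20 testis and 16 seminal fluid genes, beside 2.03% of all probe sets and 2.93% of those past the limit. The median level of all probe sets was itself 0.63 higher on the arrays of the set of 6, and centring the arrays on it lowers every difference by that amount. Over the 12991 past the limit, array medians were alike, at 8.20 to 8.27 in the set of 6, against 8.17 to 8.25 in the set of 4. Their first quartiles were 6.43 to 6.52 in the set of 6, against 5.69 to 5.77 in the set of 4. In bulk RNA, fewer cells of a type and less RNA per cell cannot be told apart.

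**Figure D1:**
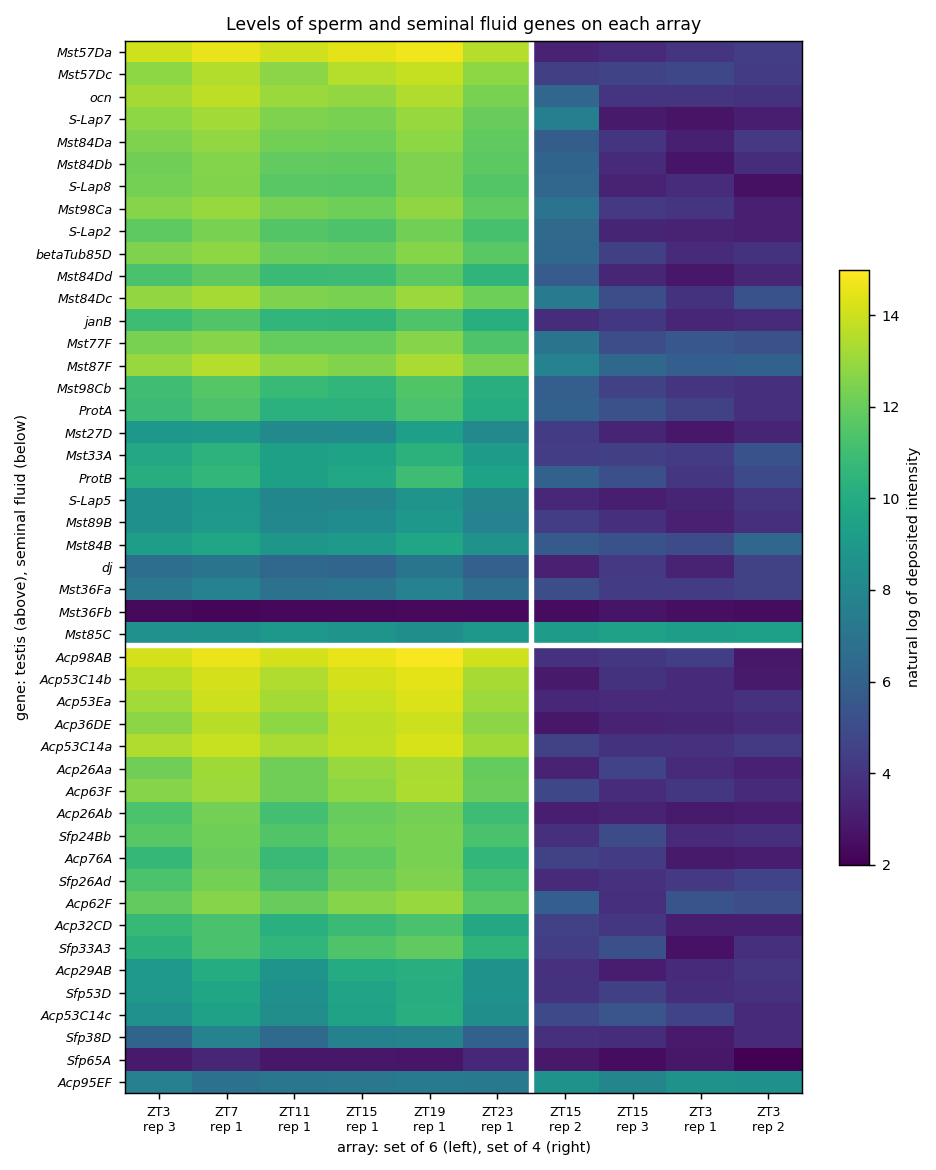
Natural log of the deposited intensity (colour) of the 47 sperm and seminal fluid genes (rows, testis genes above and seminal fluid genes below, each ordered by the difference between array sets) on the 10 arrays (columns, set of 6 on the left and set of 4 on the right). Genes such as Acp98AB, at 14.05 to 14.89 in the set of 6, against 2.84 to 4.40 in the set of 4, change colour at the border. Mst85C, Acp95EF, Mst36Fb and Sfp65A change little in colour, with differences of -0.59, -1.21, -0.25 and 0.54.

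Genes of the sperm tail and its axoneme were higher in the set of 6. betaTub85D, the testis-specific beta tubulin of the axoneme and the meiotic spindle, was at 11.67, 12.25 and 12.80 in the set of 6, against 6.39, 4.46, 3.59 and 3.89 in the set of 4, a difference of means of 7.67. Mst84Da, Mst84Db, Mst84Dc and Mst84Dd lie next to one another in the genome and encode short proteins of the sperm tail rich in cysteine, glycine and proline. Their differences were 8.13, 8.06, 7.28 and 7.33. Mst87F, of the same family, was at 12.45, 12.89 and 13.54 in the set of 6, against 7.77, 6.37, 5.91 and 6.05 in the set of 4. Its sets were 6.42 apart. The neighbours Mst98Ca and Mst98Cb, further sperm tail genes of this type, differed by 7.91 and 6.37. Members of such families resemble one another in sequence, so part of a signal may come from a relative.

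Among the sperm chromatin genes, ProtA and ProtB are adjacent and encode the protamine-like proteins that package sperm DNA. ProtA was at 10.05, 10.64 and 11.35 in the set of 6, against 6.06, 5.22, 4.57 and 3.74 in the set of 4. ProtB was at 9.41, 9.94 and 10.98 in the set of 6, against 6.06, 5.18, 4.05 and 4.91 in the set of 4. Mst77F, which encodes a linker-histone-like protein of the condensing spermatid nucleus, was at 11.42, 12.16 and 12.66 in the set of 6, against 6.99, 5.06, 5.53 and 5.22 in the set of 4. None of the 3 genes had overlapping sets, and the differences were 5.83, 5.02 and 6.45.

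The sperm leucyl aminopeptidases, abundant proteins of mature sperm, were represented by S-Lap2, S-Lap5, S-Lap7 and S-Lap8. S-Lap7 was at 11.99, 12.62 and 13.20 in the set of 6, against 7.60, 2.94, 2.71 and 3.09 in the set of 4. S-Lap5 was at 7.93, 8.23 and 8.91 in the set of 6, against 3.48, 3.08, 3.36 and 3.93 in the set of 4. All 4 were higher in the set of 6, by 7.71, 4.86, 8.56 and 8.06 in the order named. On ZT15 replicate 2 S-Lap7 was at 7.60, its highest value in the set of 4, whereas S-Lap5 stayed low there.

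The neighbours ocn and janB are testis genes of the janus region. ocn was at 12.38, 13.13 and 13.69 in the set of 6, against 6.31, 3.96, 3.95 and 3.88 in the set of 4, with a difference of 8.59. janB was at 10.18, 10.75 and 11.45 in the set of 6, against 3.70, 4.13, 3.40 and 3.57 in the set of 4, with a difference of 7.13. dj (don juan), a sperm protein gene, was at 6.00, 6.55 and 7.07 in the set of 6, against 3.20, 4.15, 3.31 and 4.54 in the set of 4, with a smaller difference of 2.77. Mst36Fa (2.67) and Mst84B (3.67) were the other testis genes higher in the set of 6 by under 4. Mst27D, Mst33A and Mst89B differed by 5.20, 5.17 and 4.66. Most testis genes were low in the set of 4, so the size of a difference also depends on the level in the set of 6. It is no ranking of the genes. Mst57Da and Mst57Dc, accessory gland genes counted here by their prefix, differed by 10.43 and 8.64.

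Seminal fluid genes showed the same separation from low values in the set of 4. Acp26Aa encodes ovulin, which raises ovulation in mated females. It was at 11.92, 12.59 and 13.36 in the set of 6, against 3.24, 4.64, 3.62 and 3.20 in the set of 4. Its neighbour Acp26Ab was at 10.94, 11.64 and 12.28 in the set of 6, against 3.07, 3.26, 2.92 and 3.05 in the set of 4. The sets were thus apart by 8.95 and 8.57. Acp36DE, whose product is needed for sperm storage, was at 12.74, 13.19 and 13.99 in the set of 6, against 2.86, 3.22, 3.34 and 3.57 in the set of 4, a difference of 10.01. Acp29AB, a lectin gene also linked to sperm storage, differed by 5.84.

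The Acp53 genes form a cluster of related accessory gland peptides. Acp53C14a, Acp53C14b and Acp53Ea were apart by 9.53, 10.50 and 10.02. Acp53C14c, next to Acp53Ea in the genome, differed by 4.48: it was at 8.42, 9.02 and 10.22 in the set of 6, against 4.86, 5.41, 4.63 and 3.59 in the set of 4. Sfp53D, with 1 gene between it and Acp53C14a, differed by 5.30. All 5 genes were thus higher in the set of 6 without overlap.

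Among genes for protease inhibitors, Acp62F was at 11.64, 12.31 and 13.01 in the set of 6, against 5.90, 3.76, 5.36 and 5.05 in the set of 4. Acp76A, which encodes a serpin, was at 10.63, 11.29 and 12.37 in the set of 6, against 4.56, 4.32, 2.94 and 3.03 in the set of 4. Acp98AB was at 14.05, 14.37 and 14.89 in the set of 6, against 3.87, 4.11, 4.40 and 2.84 in the set of 4, a difference of 10.60. The remaining accessory gland genes Acp32CD and Acp63F differed by 6.99 and 8.67. The Sfp genes, named for seminal fluid proteins, differed by 7.79 for Sfp24Bb, 7.65 for Sfp26Ad, 6.98 for Sfp33A3 and 3.49 for Sfp38D. The gene SP encodes sex peptide, which lowers receptivity and raises egg laying in mated females. Its symbol falls outside the naming rule, but a reference gene table lists Acp70A as its older name. SP was at 12.63, 13.14 and 13.71 in the set of 6, against 3.61, 2.61, 2.80 and 3.26 in the set of 4, a difference of 10.09.

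The exceptions were of 2 kinds. Mst85C and Acp95EF had levels above 6 on all arrays and were lower in the set of 6. Mst85C was at 8.48, 8.69 and 8.92 in the set of 6, against 9.20, 9.44, 9.24 and 9.35 in the set of 4, a difference of -0.59 (-1.22 with arrays centred on their medians). Acp95EF was at 6.85, 7.21 and 7.64 in the set of 6, against 8.70, 7.90, 8.66 and 8.52 in the set of 4, a difference of -1.21 (-1.84 with arrays centred). Neither pair of sets overlapped, and the spread of each gene over all arrays stayed under 2. With quantile normalization, which gives all arrays the same distribution of values, the differences were -0.55 for Mst85C and -1.34 for Acp95EF. The other kind was low on every array. Mst36Fb was at 2.23, 2.30 and 2.35 in the set of 6, against 2.45, 2.75, 2.55 and 2.42 in the set of 4, and Sfp65A was at 2.79, 2.88 and 3.48 in the set of 6, against 2.87, 2.44, 2.85 and 1.84 in the set of 4. Mst36Fb lies next to Mst36Fa, which was at 6.69, 7.10 and 7.76 in the set of 6. Values as low as those of Mst36Fb and Sfp65A do not tell whether these genes changed. Mst36Fb and Sfp65A were the 2 genes with a mean under 4 over all arrays, which kept them out of the tests below. Nearest the limit from above were dj and Sfp38D, with means of 5.46 and 5.60. As most of the other 45 passed this limit through their values in the set of 6, their passing supports nothing.

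Lists of markers of other tissues had smaller median differences, between -1.26 and 1.82. Their counts of genes without overlap stand beside 22% higher and 33.3% lower in the set of 6 over all 12991 tested probe sets. Photoreceptor genes had list medians of 13.49 to 14.06 in the set of 6, against 13.67 to 13.90 in the set of 4, while neuron genes had 10.12 to 10.79 in the set of 6, against 9.25 to 9.81 in the set of 4. Both head lists were thus present on all arrays. Of 6 photoreceptor genes 0 were higher in the set of 6 without overlap and 1 was lower, and of 6 neuron genes 3 were higher and 0 lower, by a list median of 0.78. Among abdominal tissues, midgut genes had list medians of 12.82 to 13.84 in the set of 6, against 11.13 to 12.71 in the set of 4, with 2 of 8 higher in the set of 6 and 6 overlapping. Malpighian tubule genes had medians of 9.15 to 9.74 in the set of 6, against 9.46 to 9.76 in the set of 4, with 1 of 4 higher, 1 lower and 2 overlapping. ZnT35C was the tubule gene higher, by 3.12. Muscle genes had list medians of 5.96 to 12.31 in the set of 6, against 7.95 to 8.34 in the set of 4, with 2 of 5 higher in the set of 6 and 3 overlapping. Fat body and blood cell genes had medians of 8.79 to 9.90 in the set of 6, against 10.99 to 11.54 in the set of 4, with 3 of 4 lower in the set of 6. The part of these tissues in the difference was not tested.

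Female transcripts were also set beside the male genes. The yolk protein genes Yp1, Yp2 and Yp3, made by the fat body and ovary of females, had list medians of 15.27 to 15.50 in the set of 6, against 15.58 to 15.77 in the set of 4. Yolk transcripts were thus high on all 10 arrays. Of the 3 genes, 1 (Yp2) was lower in the set of 6 without overlap and 2 overlapped. Their levels lay near the highest of all deposited values, 15.96, where differences may not show in full. The spermatheca genes Send1 and Send2, of the female sperm store, failed the limit on low values. Of 8 tested ovary and eggshell genes, 1 was higher in the set of 6 and 7 overlapped, with a median difference of 0.53. Single arrays of the set of 6 stood out in this list. On the ZT11 array the eggshell genes Vm26Aa, Vm34Ca, Cp36 and Cp38 were at 11.44, 10.66, 10.60 and 9.01, each above its value on every other array by over 3. The 3 probe sets of osk, a gene of oocyte patterning, were at 8.83 to 10.33 on the ZT11 array and at 6.74 to 8.02 on ZT3 replicate 3. On ZT3 replicate 3 Cp15, another eggshell gene, was at 12.29, also its highest value. The part of ovary RNA in the results was not tested. msl-2, which encodes the male-specific subunit of the dosage compensation complex, had overlapping sets and a difference of -0.41. Technical probe sets moved too, in both directions. All 18S ribosomal RNA controls were lower in the set of 6 without overlap, with differences of -4.01 to -2.78. The middle one, with the smallest difference, was at 9.10 to 10.63 in the set of 6, against 12.71 to 13.13 in the set of 4. All actin controls were higher in the set of 6 without overlap, by 1.22 to 1.43, and GAPDH controls had differences of -0.43 to 0.24. The part of RNA composition or labelling in the results was not tested.

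Further genes of the male germ line and tract, not covered by the naming rule, separated the arrays as well. Of 36 other spermatogenesis genes on the array, 32 passed the limit on low values. Many of them passed through their values in the set of 6, so their passing supports nothing. Of the 32 tested, 29 were higher in the set of 6 without overlap, 1 was lower and 2 overlapped, beside 22% higher and 33.3% lower over all tested probe sets. Their median difference was 3.23. In all lists, a gene with several probe sets was counted by the one with the highest mean over all arrays. This choice can favour probe sets high in the set of 6. As counted, bol differed by 3.35, but another tested probe set of bol overlapped, with a difference of -0.10. As counted, r-cup differed by 2.30, but an untested probe set of r-cup was lower in the set of 6 without overlap, with a difference of -1.23. The spermatid chromatin genes Tpl94D, tHMG1 and tHMG2 differed by 3.95, 6.12 and 6.30, and the testis proteasome subunit genes Prosalpha3T and Prosalpha6T by 1.05 and 4.07. The meiotic arrest genes switch on the transcription program of maturing spermatocytes. Among them aly, comr, can and tomb failed the limit on low values, and the sets of each overlapped. The genes topi, nht and sa differed by 0.63, 1.79 and 2.13, and mia was lower in the set of 6 by a difference of -0.78.

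Among other genes of the male tract, 23 of 24 tested were higher in the set of 6 without overlap, beside 22% of all tested probe sets, and 1 overlapped. Their median difference was 5.25. Most of the 24 passed the limit on low values through their values in the set of 6, so their passing supports nothing. The ejaculatory bulb genes EbpII and Ebp differed by 12.02 and 11.15. EbpII was at 14.46, 14.79 and 15.04 in the set of 6, against 2.59, 2.92, 2.83 and 2.66 in the set of 4. Dup99B, an ejaculatory duct peptide related to sex peptide, differed by 10.02, and prd, a transcription factor gene needed for the accessory gland, by 2.73. Gld, which is not restricted to the male tract, was the gene whose sets overlapped, at 8.46, 9.33 and 10.03 in the set of 6, against 8.94, 8.80, 8.68 and 8.34 in the set of 4. The genes higher in the set of 6 thus included markers of the testis, accessory gland, duct and bulb.

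**Figure D2:**
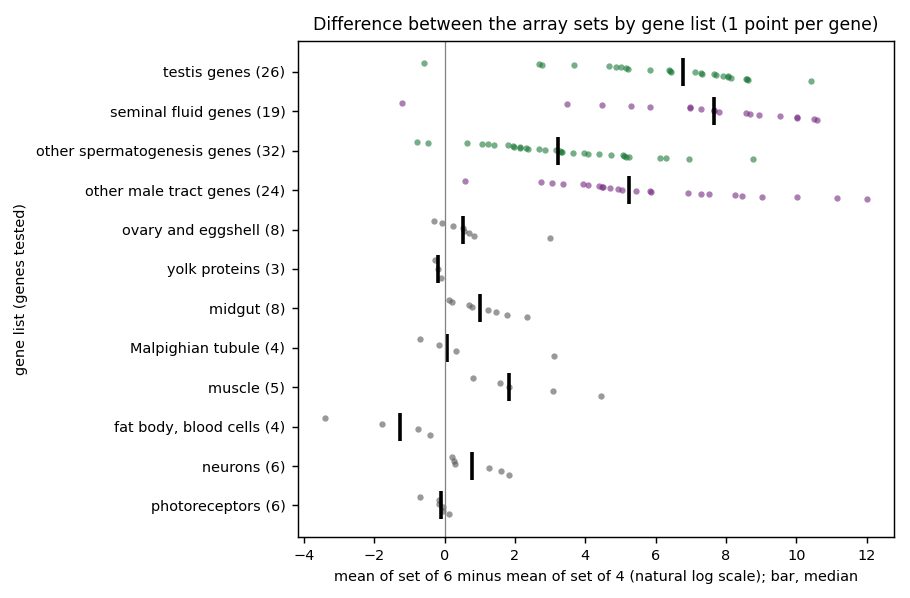
Mean of the set of 6 minus mean of the set of 4 (x axis, natural log scale) for each gene tested (points, 1 per gene) of the testis and seminal fluid genes and of 10 other gene lists (rows), with the median as a bar. The medians of the 4 male reproductive lists lie at 6.79, 7.67, 3.23 and 5.25, and those of the other lists between -1.26 and 1.82.

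Within the set of 6, where these genes are high, testis and seminal fluid genes went up and down from array to array as 2 groups. Each time has 1 array there, so time of day and array cannot be told apart, and the values carry no replicate error. betaTub85D was at 12.47, 12.80, 12.04, 11.92, 12.63 and 11.67 at ZT3, ZT7, ZT11, ZT15, ZT19 and ZT23. Acp36DE was at 12.75, 13.59, 12.78, 13.70, 13.99 and 12.74 at the same times. Both were high at ZT7 and ZT19 and low at ZT11 and ZT23, but at ZT15 betaTub85D was near its low end and Acp36DE near its high end.

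The same split held across the 45 genes tested. On the ZT7 array 25 of 26 testis and 18 of 19 seminal fluid genes were above their own mean over the 6 arrays, beside 41.9% of all tested probe sets. On the ZT19 array it was 25 of 26 and 19 of 19, beside 41.7%. On the ZT11 array it was 1 of 26 and 0 of 19, beside 56.4%, and on the ZT23 array 1 of 26 and 1 of 19, beside 52.9%. The groups parted on the remaining arrays. At ZT15 only 3 of 26 testis genes but 18 of 19 seminal fluid genes were above their mean, beside 54.6% of all. At ZT3 the counts were 23 of 26 and 2 of 19, beside 45.7%. The median deviation from the mean of the 6 arrays was -0.29 for testis and 0.33 for seminal fluid genes at ZT15, and 0.10 and -0.39 at ZT3.

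**Figure D3:**
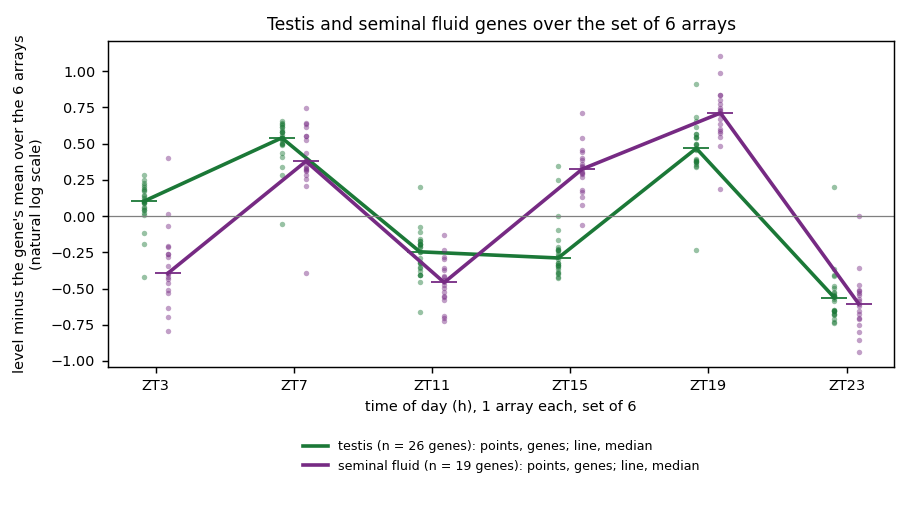
Level of each tested gene minus its own mean over the set of 6 arrays (y axis, natural log scale) against time of day (x axis, 1 array per time), for 26 testis genes and 19 seminal fluid genes, with lines through the medians. The medians run together at ZT7, ZT11, ZT19 and ZT23 and lie on opposite sides of 0 at ZT15 (-0.29 and 0.33) and at ZT3 (0.10 and -0.39).

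Setting ZT15 against ZT3 within the set of 6, 1 array each, 23 of 26 testis genes were lower at ZT15 (44% of all tested probe sets were) and 18 of 19 seminal fluid genes were higher (56%). The median difference, ZT15 minus ZT3, was -0.40 for testis and 0.69 for seminal fluid genes, against 0.05 for all tested probe sets. The testis genes that went the other way were Mst85C, Mst57Da and Mst57Dc. Mst57Da was higher by 0.45 and Mst57Dc by 0.78. Despite the prefix Mst, which stands for male-specific transcript, both are accessory gland genes, and a reference gene table lists Acp57Dc as a former name of Mst57Dc. Counted with the seminal fluid genes, a change made after seeing the data, they bring the counts to 20 of 21 seminal fluid genes higher and 23 of 24 testis genes lower. The seminal fluid gene that went the other way was Acp95EF, at 7.18 at ZT15, against 7.64 at ZT3.

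The lists of further genes followed the same split. Of 32 other spermatogenesis genes, 30 were lower at ZT15 than at ZT3 in the set of 6 (44% of all tested probe sets were), with a median of -0.53. All 24 other male tract genes were higher (56%), with a median of 0.52. Muscle genes moved on the same pair of arrays: 4 of 5 were lower at ZT15, with a median of -4.54. Ovary genes moved on it too: 6 of 8 were lower at ZT15, with a median of -0.13, and Cp15 was at 3.85 at ZT15, against 12.29 at ZT3. The 3 osk probe sets were lower at ZT15, with differences of -5.75 to -3.57. The part of muscle, ovary or any other tissue in these differences was not tested.

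Within the set of 4, where these genes are low, ZT15 replicate 2 stood apart in its testis genes. The testis median over 26 genes reached 5.97 on ZT15 replicate 2 and was 4.14 on ZT15 replicate 3, against 3.93 and 3.91 on ZT3 replicates 1 and 2. The seminal fluid median over 19 genes was 3.87 and 3.91 on the same ZT15 arrays, against 3.58 and 3.60 on the ZT3 arrays. On ZT15 replicate 2, 13 of 26 testis genes and 0 of 19 seminal fluid genes lay above the other 3 arrays of the set by over 1, beside 1.19% of all tested probe sets.

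The 13 were S-Lap7, S-Lap2, S-Lap8, Mst98Ca, Mst98Cb, the 4 Mst84D genes, ocn, betaTub85D, Mst77F and Mst87F. Their medians in the set of 6 were 10.89 to 13.13. The other testis genes tested, without Mst57Da, Mst57Dc and Mst85C, had medians of 6.55 to 10.75 there. Among these testis genes the 13 thus had the higher values, though levels of different probe sets are not on a common scale. Mst84Dc had 7.38 on ZT15 replicate 2, next to 5.10 on ZT15 replicate 3, against 3.90 and 5.28 at ZT3. Mst98Ca was at 6.93 and 4.14 at ZT15, against 4.01 and 3.14 at ZT3. The high values were thus on 1 of the 2 ZT15 arrays of the set. Among the further lists, 5 of 32 spermatogenesis genes (CG9920, wa-cup, Pglym87, tHMG1 and tHMG2) and 1 of 24 male tract genes (lectin-46Ca) passed the same mark. So did 1 of 8 midgut genes (Jon25Bii). The 5 spermatogenesis genes had medians in the set of 6 of 12.74, 8.47, 7.44, 10.79 and 10.28 in the order named. Hsp60B (10.30) and djl (9.95) did not pass, so level did not set apart the genes of this list.

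**Figure D4:**
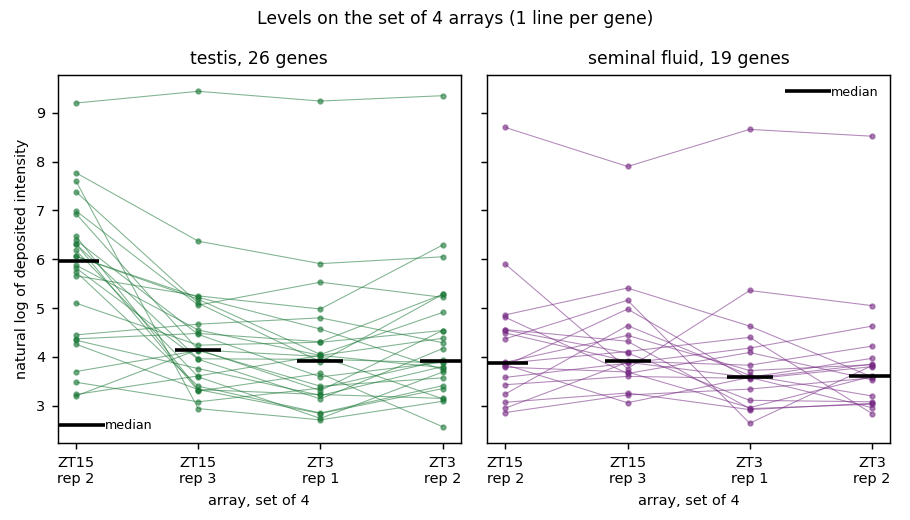
Natural log of the deposited intensity (y axis) of 26 testis genes (left) and 19 seminal fluid genes (right) on the 4 arrays of the set of 4 (x axis, ZT15 replicates 2 and 3, then ZT3 replicates 1 and 2), 1 line per gene, with medians as bars. The testis median is 5.97 on ZT15 replicate 2 and 3.91 to 4.14 on the other arrays, and the seminal fluid medians stay between 3.58 and 3.91.

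ZT15 was tested against ZT3 over all 6 arrays of these times. Each time mixes both array sets. S-Lap7 was at 12.41, 7.60 and 2.94 on ZT15 replicates 1 to 3, against 2.71, 3.09 and 12.78 on ZT3 replicates 1 to 3. The ranges overlap almost fully. Of 45 genes 0 passed an adjusted p of 0.05 in limma (a moderated linear model, with Benjamini-Hochberg adjustment over all tested probe sets), beside 0.0308% of all tested probe sets, and 0 of 45 had an unadjusted p under 0.05, beside 1.81%. The median SD over the 3 ZT3 arrays was 4.21 for testis and 4.44 for seminal fluid genes, against 0.38 for all tested probe sets.

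With the array set as a block, again 0 of 45 passed, beside 0.154% of all tested probe sets, and 6 had an unadjusted p under 0.05 (limma), beside 9.6%. All 6 were seminal fluid genes higher at ZT15. Acp76A came nearest, with 11.78 at ZT15, against 10.68 at ZT3, in the set of 6. In the set of 4 it was at 4.56 and 4.32 at ZT15, against 2.94 and 3.03 at ZT3. The ZT15 and ZT3 values thus did not overlap in the set of 4. With 1 array at each time in the set of 6, overlap cannot be judged there. With the block, Acp76A was higher at ZT15 by 1.34 ± 0.13 (SE, limma adjusted p = 0.072). It passed 0.05 when the limit on low values was set at a mean of 6 and with a trended, robust variance, each at an adjusted p of 0.04 in limma. Leaving out 1 array at a time gave an adjusted p of 0.15 to 0.4 in limma. In the set of 4 its values were below the first quartile of all tested probe sets. The other 5 were Sfp33A3 (1.38), Acp53C14c (0.99), Acp32CD (0.87), Sfp38D (0.81) and Sfp53D (0.46), with limma adjusted p from 0.38 to 0.5.

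The median difference with the block, ZT15 minus ZT3, was 0.62 over 26 testis genes and 0.35 over 19 seminal fluid genes, against 0.01 over all tested probe sets. It was above 0 for 21 of 26 and 17 of 19, beside 51.4%. For testis genes this joined values of opposite sign, -0.40 for the set of 6 and 1.12 for the set of 4, and it became 0.00 without ZT15 replicate 2 and 1.12 without ZT15 replicate 1 or ZT3 replicate 3. For seminal fluid genes the values were 0.69 and 0.37, and the median stayed between 0.35 and 0.46 whichever array was left out.

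Whether ZT15 minus ZT3 differed between the sets was tested with an interaction term. The set of 6 has 1 array at each of these times. A gene's own spread in this fit thus comes from the 4 arrays of the set of 4 alone, where most of these genes were low. The moderation in limma draws this spread toward that of all tested probe sets. Of 45 genes 0 passed (limma adjusted p of 0.62 or more), beside 0% of all tested probe sets, and 5 had an unadjusted p under 0.05, beside 7.67%. A count of 0 from this fit is therefore no sign that the sets moved alike. Acp36DE had the lowest p. In the set of 6 it was at 13.70 at ZT15, against 12.75 at ZT3. In the set of 4 it was at 2.86 and 3.22 at ZT15, against 3.34 and 3.57 at ZT3. The change in the set of 6 minus that in the set of 4 was below 0 for 22 of 26 testis genes, beside 42.4% of all, and above 0 for 12 of 19 seminal fluid genes, beside 57.6%. S-Lap7 changed by -0.36 in the set of 6 but by 2.38 in the set of 4, where its ZT15 values were 7.60 and 2.94, against 2.71 and 3.09 at ZT3. That change thus rests on ZT15 replicate 2. ProtA changed by -0.53 in the set of 6 but by 1.48 in the set of 4.

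**Figure D5:**
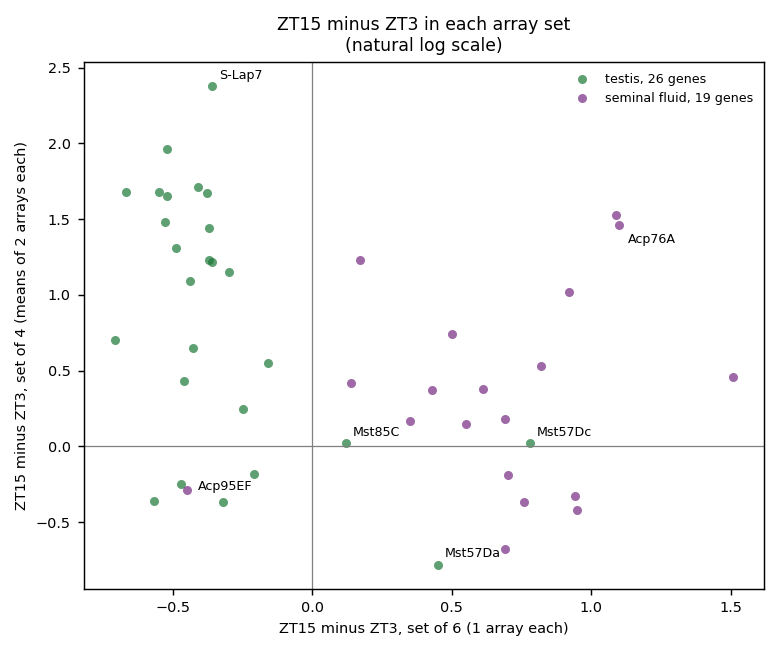
ZT15 minus ZT3 (natural log scale) of each tested gene in the set of 6 (x axis, 1 array each) and in the set of 4 (y axis, means of 2 arrays each). Testis genes lie left of 0 on the x axis except Mst85C, Mst57Da and Mst57Dc, up to 2.38 on the y axis (S-Lap7), and seminal fluid genes lie right of 0 except Acp95EF.

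A cosine with a period of 24 hours over all 10 arrays asked whether any of these transcripts cycled. Of 45 genes 0 passed without the block, beside 0.0385% of all tested probe sets, and 0 had an unadjusted p under 0.05 (limma F test), beside 1.61%. With the array set as a block 0 passed, beside 0.508% of all, and 1 had an unadjusted p under 0.05, beside 7.91%. That gene was Sfp33A3, a seminal fluid gene. In the set of 6 it was at 10.34, 11.29, 10.56, 11.43, 11.81 and 10.43 from ZT3 to ZT23. In the set of 4 it was at 4.37 and 5.16 at ZT15, against 2.64 and 3.82 at ZT3. The arrays of ZT7, ZT15 and ZT19 were its highest in the set of 6, and the 2 ZT15 arrays its highest in the set of 4. Its fitted amplitude, from mean to peak, was 0.65 with a peak at ZT15.7 (limma adjusted p = 0.58). Of the other spermatogenesis and male tract genes, 0 of 32 and 0 of 24 passed either fit, for ZT15 against ZT3 or for the cosine.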

How the data were processed

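Affymetrix expression arrays (10 in all) were used for RNA of fly heads. For each array the authors deposited 1 intensity a probe set, made with GCRMA per the submitters' processing notes, with no version or settings in the sources used here. Deposited intensities run from 5.283 to 8528000, above the 65536 levels of a scanner, so natural logs were used. Per the platform annotation, 13647 probe sets have 1 gene symbol, 402 several and 4720 none; all 47 genes were found in a RefSeq gene table, used for older names and neighbours. Probe sets whose mean natural log reached 4 (12991, 45 of the 47 genes) were tested with limma 3.58.1 in R 4.3.3, adjusted over all of them at 0.05. The fits were tested on simulated data.

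Array sets came from complete-linkage clustering on 1 minus Pearson correlation. Genes and lists were chosen with earlier results of these data known. Named with values are the symbols spelled out in the naming rule, the gene families, the best-known accessory gland genes, extremes of level and of set difference, and any gene past a threshold (none was). SP, genes of the further lists and those nearest a threshold were picked after values were seen. Replicate numbers were not taken to pair samples, since no label says so. Deviations of same-numbered ZT15 and ZT3 arrays correlated at -0.893, 0.804 and -0.903, signs that go with the array sets (numbers 1 and 3 lie in opposite sets). Alternatives covered filter, normalization, scale, variance prior, blocks and left-out arrays. The number of arrays limits precision.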

Additional observations from a re-analysis of the deposited data

How the results depend on the processing

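The counts of 0 genes past the threshold for ZT15 against ZT3, for the cosine (also with array sets blocked) and for the difference between sets were also 0 under each alternative filter, normalization, scale and variance prior. Once sets were blocked, 0 for ZT15 against ZT3 became 1 (Acp76A) with a lowest mean of 6 and 1 with a trended, robust variance. Leaving out 1 array gave 0 to 0 in each ZT15 and cosine fit (the difference between sets was not refitted this way) and 45 to 45 for the genes tested whose sets do not overlap. With the replicate number as a block 0 genes passed (limma, 0 at an unadjusted p under 0.05). Median centring moved the median of all probe sets by 0.63 between the sets. It lowered 24 of 45 set differences by more than their spread; quantile normalization moved 1 and reversed 0. The counts of genes parted at ZT15 and ZT3 in the set of 6 stayed at 18 and 23 under each scaling, and the 13 testis genes high on ZT15 replicate 2 were 13 to 16; these counts and their alternatives were chosen after seeing the data. Low values in the set of 4 limit what can be said there.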
